A study of Mus musculus with 6 samples.

Results

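The genes described here are 9 through which beta cells, the insulin-secreting cells of the pancreatic islets, sense glucose, answer to incretin hormones and turn proinsulin into insulin. They were taken by name as Slc2a2, G6pc2, Abcc8, Kcnj11, Slc30a8, Glp1r, Pcsk1, Pcsk2 and Ucn3. A probe set, the group of short probes that together measure 1 transcript on an Affymetrix array, was used where the platform annotation gave it exactly 1 of these genes. This held for 8 of the 9 genes and 10 probe sets, out of 18193 genes and 45037 probe sets tested, and Pcsk2 was not analysed here. RNA of the whole pancreas came from 3 mice without Rkip-1 (KO) and 3 wild-type mice (WT) of 1 colony kept on a C57BL/6 background. All mice were 8 weeks old, and each gave 1 array. Rkip-1 restrains the kinase cascade from Raf to MEK and ERK, and the series was made to ask about its part in beta cell proliferation. The sources used here do not say how or in which cells the gene was inactivated, or which sex the mice were.

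Glucose enters the rodent beta cell through the transporter GLUT2 and is metabolised, and the ATP made in this way closes the ATP-sensitive potassium channel (KATP channel). The membrane depolarises, calcium enters and insulin granules fuse with the membrane. Inside those granules, prohormone convertases cut proinsulin and zinc packs the insulin into crystals. Islets are a small part of the pancreas, which is mostly acinar tissue. In RNA of the whole organ, fewer beta cells and less RNA per beta cell cannot be told apart.

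The deposited values are on a log2 scale, so a difference of 1 is a 2-fold change. Array medians lay between 2.97 and 3.02, and the upper quartiles between 4.52 and 4.56. Correlations between arrays ran from 0.989 to 0.993. At its brightest probe set Pebp1, which encodes Rkip-1, measured 5.89, 6.50 and 5.71 in KO replicates 1, 2 and 3 and 9.81, 10.01 and 9.81 in the WT replicates. At its other probe set it measured 2.76, 3.35 and 3.56 in KO and 8.58, 8.53 and 8.45 in WT. Both were low in every array labelled KO. The pancreatic and beta cell origin of the RNA was visible in the acinar protease Cela3b, with a mean of 14.56, and in insulin (Ins2), with a mean of 12.65. Xist, the RNA that silences 1 X chromosome in female cells, reached 9.09 to 9.79 in KO replicates 2 and 3 and WT replicate 3 and lay between 4.005 and 4.44 in the other arrays.

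No rise or fall in the KO pancreas was detected by limma for any of the 8 genes after adjustment. The number with a Benjamini-Hochberg adjusted p under 0.05 was 0 of 8, where 0.132% of all genes passed. At an unadjusted p under 0.05 it was 1 of 8, Ucn3, where 10.1% of all genes passed. That count was 0 without KO replicate 2 and 2 (Ucn3 and G6pc2) without KO replicate 1 or without WT replicate 2. Without WT replicate 1 it was again 1, but the gene was Kcnj11 (p 0.0449 by limma) and Ucn3 was no longer counted (p 0.0669). The differences ran from -0.32 for Ucn3 to 0.21 for Kcnj11, 4 genes higher and 4 lower in KO. Their median was -0.011, and that over all genes was -0.00056. The 3 KO values did not overlap the 3 WT values in 2 of the 8 genes, G6pc2 and Ucn3, both lower in KO. Over all genes the groups did not overlap in 14.4%, and in 7.56% with KO the lower. At the standard error of its own probe set, a gene would have had to differ by 0.69 (Glp1r) to 1.05 (Pcsk1) on the log2 scale, or 1.62-fold to 2.07-fold, to pass in this fit.

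**Figure D1:**
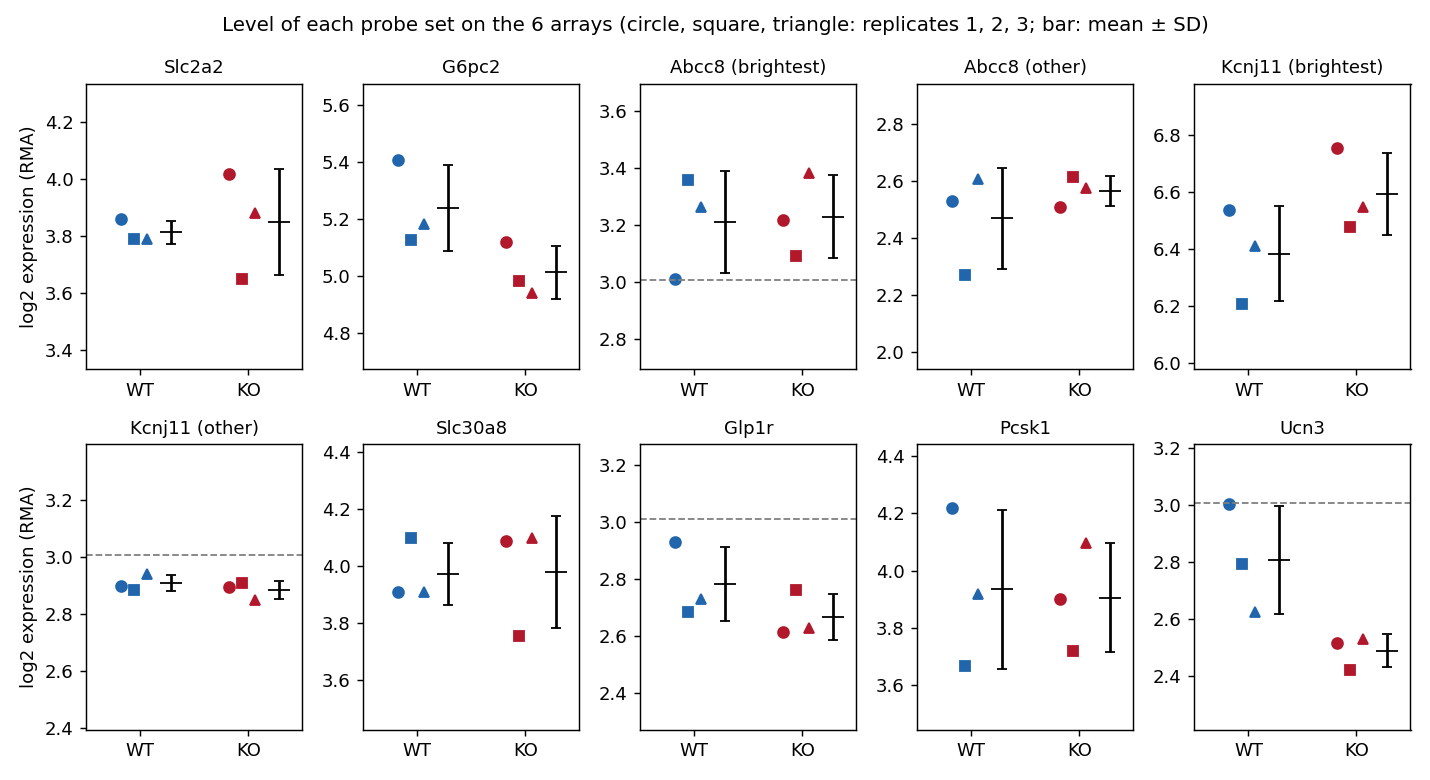
Log2 expression of the 10 probe sets on the 6 arrays, with a vertical axis of the same span (1 log2 unit) in every panel. Blue points are WT and red points KO, the symbols stand for replicates 1 to 3, black bars are the mean ± SD of 3 arrays, and the dashed grey line is the middle of the 6 array medians, drawn where it falls in the panel. The 3 KO points lie below the 3 WT points for G6pc2 and Ucn3, and the groups overlap in the other 8 panels.

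The promoters of G6pc2 and Ucn3 are shown because these were the genes whose groups did not overlap, and that of Pcsk1 for comparison with a gene whose groups did. The windows cover 250 bases before to 50 bases after an annotated start in RefSeq, on mouse assembly GRCm38.p6, where 6 of the 9 genes had an entry. G6pc2 has entries for 2 starts on the plus strand, at chr2:69210823-69211122 and chr2:69219699-69219998. Ucn3 lies on the minus strand at chr13:3945300-3945599 and Pcsk1 on the plus strand at chr13:75089607-75089906. Each is written 5′ to 3′ along its gene, and capitals mark matches on either strand to the 6 motifs searched.
G6pc2, first start: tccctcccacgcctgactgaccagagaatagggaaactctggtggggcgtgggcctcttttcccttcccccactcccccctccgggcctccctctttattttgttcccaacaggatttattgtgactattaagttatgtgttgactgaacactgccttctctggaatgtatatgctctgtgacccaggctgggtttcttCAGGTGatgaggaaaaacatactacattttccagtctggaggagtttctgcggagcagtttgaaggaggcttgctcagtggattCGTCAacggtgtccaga
G6pc2, second start: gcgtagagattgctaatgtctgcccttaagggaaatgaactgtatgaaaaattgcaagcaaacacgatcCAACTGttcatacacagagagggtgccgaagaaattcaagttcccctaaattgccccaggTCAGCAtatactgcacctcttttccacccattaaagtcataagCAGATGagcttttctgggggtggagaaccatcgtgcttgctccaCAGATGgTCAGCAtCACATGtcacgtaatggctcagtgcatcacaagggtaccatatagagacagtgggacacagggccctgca
Ucn3: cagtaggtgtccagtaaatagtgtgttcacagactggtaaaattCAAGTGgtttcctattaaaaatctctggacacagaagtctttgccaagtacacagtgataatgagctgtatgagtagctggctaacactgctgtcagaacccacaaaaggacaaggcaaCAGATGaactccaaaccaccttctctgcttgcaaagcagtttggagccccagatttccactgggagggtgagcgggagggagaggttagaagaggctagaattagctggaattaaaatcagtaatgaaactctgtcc
Pcsk1: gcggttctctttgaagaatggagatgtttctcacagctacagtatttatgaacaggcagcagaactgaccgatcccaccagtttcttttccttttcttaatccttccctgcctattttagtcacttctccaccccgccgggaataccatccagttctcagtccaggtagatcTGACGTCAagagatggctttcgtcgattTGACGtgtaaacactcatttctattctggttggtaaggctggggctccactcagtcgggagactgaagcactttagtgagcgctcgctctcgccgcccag

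The motifs were the E box CANNTG, bound by basic helix-loop-helix factors such as NeuroD1, the core TGACG of the cAMP response element, the core TGCTGA of Maf factor sites, the TATA box TATAAA, the homeodomain site TAATTA and the HNF1 core GTTAAT. The window at the second start of G6pc2 held 4 E boxes and 2 Maf cores, and that at the first start 1 E box and 1 cAMP core. Ucn3 held 2 E boxes. The windows of Slc2a2, Glp1r and Pcsk2, not printed here, held 1 E box each, and that of Pcsk2 also 1 cAMP core. The groups of Slc2a2 and Glp1r overlapped, as did those of Pcsk1. Pcsk1 held 3 cAMP cores and no E box, and 2 of those cores overlap in the palindrome TGACGTCA, which begins 78 bases before the start. Of all 32851 promoter windows of this length, 72.3% held an E box, 20.8% the cAMP core and 19.5% the Maf core. The TATA, homeodomain and HNF1 letters, held by 13.6%, 5.29% and 7.1% of all windows, were not found in the 7 windows of these genes. These are matches of letters in the window and were not tested for binding.

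Slc2a2, G6pc2 and the KATP channel form the glucose-sensing steps. Slc2a2 encodes GLUT2, the low-affinity glucose transporter of rodent beta cells, also used by hepatocytes. It measured 4.02, 3.65 and 3.88 in KO replicates 1, 2 and 3 and 3.86, 3.79 and 3.79 in WT replicates 1, 2 and 3. The KO arrays held both the highest and the lowest value, with all WT values between them. The KO mean was 3.85 ± 0.19 and the WT mean 3.81 ± 0.04 (SD, n = 3 each), a difference of 0.04 (95% interval -0.20 to 0.28), which is 1.03-fold with an interval of 0.868 to 1.21. The spread between KO mice exceeded this difference.

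G6pc2 encodes an islet glucose-6-phosphatase that reverses the glucokinase step and so dampens glucose sensing. It measured 5.12, 4.98 and 4.94 in KO and 5.41, 5.12 and 5.18 in WT, in the order of the replicates. All KO values were lower than all WT values, but the highest KO array (5.117) and the lowest WT array (5.124) nearly touched, and WT replicate 1 stood above the rest. The means were 5.01 ± 0.09 and 5.24 ± 0.15 (SD, n = 3 each), a difference of -0.22 (95% interval -0.46 to 0.01), or 1.17-fold lower in KO, with an adjusted p of 0.593 by limma. Within the arrays of high Xist the difference was -0.22 (2 KO, 1 WT), and within those of low Xist -0.15 (1 KO, 2 WT).

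Kcnj11 and Abcc8 encode Kir6.2, the pore of the KATP channel, and SUR1, its sulfonylurea receptor, and they are neighbouring genes on the assembly. At its brightest probe set Kcnj11 measured 6.75, 6.48 and 6.55 in KO and 6.54, 6.21 and 6.41 in WT. The groups overlapped, with WT replicate 1 above KO replicate 2 and WT replicate 2 the lowest array. The difference was 0.21 (95% interval -0.05 to 0.47; adjusted p 0.66 by limma), the largest of the 8 in the upward direction. The other Kcnj11 probe set lay below the array median on every array, from 2.85 to 2.94, and differed by -0.02, so the upward difference was seen at 1 of the 2 probe sets.

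Abcc8 measured 3.22, 3.09 and 3.38 in KO and 3.01, 3.36 and 3.26 in WT at its brightest probe set, just above the array medians. The genotypes overlapped throughout, with a difference of 0.02 (95% interval -0.25 to 0.28). The other probe set of Abcc8 lay between 2.27 and 2.61, below the array medians, and differed by 0.10 (95% interval -0.14 to 0.33). Kcnj11 and Abcc8, the 2 subunits of 1 channel, thus had intervals that included 0 at all 4 of their probe sets.

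Slc30a8 encodes ZnT8, the zinc transporter of the insulin granule. It measured 4.09, 3.75 and 4.10 in KO and 3.91, 4.10 and 3.91 in WT, where KO replicate 2 was the low array. The difference was 0.01 (95% interval -0.25 to 0.27), the smallest of the 8. The values of KO replicate 3 and WT replicate 2 were identical to the last digit, as were those of WT replicates 1 and 3. Exact ties between arrays occurred in 6.63% of all probe sets in the table.

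Glp1r encodes the receptor of the incretin GLP-1, which raises cAMP and amplifies glucose-stimulated secretion. It measured 2.61, 2.76 and 2.63 in KO and 2.93, 2.68 and 2.73 in WT, below the array median on all 6 arrays. The groups overlapped, and the difference was -0.12 (95% interval -0.34 to 0.11). At levels this low, near or under the array medians, a fold can be understated, and no detection call was used here to say whether the transcript was measured at all.

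Pcsk1 encodes prohormone convertase 1/3, which makes the first cut in proinsulin. It measured 3.90, 3.72 and 4.10 in KO and 4.22, 3.66 and 3.92 in WT. Both extremes were WT arrays, replicate 1 the highest and replicate 2 the lowest. The difference was -0.03 with the widest interval of the 8 genes, -0.37 to 0.31, or 0.776-fold to 1.24-fold.

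Ucn3, urocortin 3, is a peptide that mature beta cells release with insulin and that acts on delta cells to bring out somatostatin. It measured 2.52, 2.42 and 2.53 in KO and 3.00, 2.79 and 2.63 in WT. Every KO value lay below every WT value, and the WT mice were spread more widely than the KO mice. The means were 2.49 ± 0.06 and 2.81 ± 0.19 (SD, n = 3 each), a difference of -0.32 (95% interval -0.56 to -0.07), or 1.24-fold lower in KO (1.05 to 1.48). The unadjusted limma p was 0.017 and the adjusted p 0.452. All 6 values lay below their array's median, so this is a difference among dim values. Within the arrays of high Xist it was -0.15 (2 KO, 1 WT) and within those of low Xist -0.38 (1 KO, 2 WT), and with the Xist level as a covariate -0.26.

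Beta cell content of a whole pancreas can differ between mice, so each gene was also set against the mean of Ins2 and Iapp (amylin, released with insulin) on the same array. That mean was 11.890, 11.987 and 11.999 in KO and 12.048, 12.111 and 12.035 in WT, lower in every KO array. Over all genes the groups did not overlap with KO the lower in 7.56%. Ins2 alone differed by -0.07, with overlap, and Iapp by -0.14, without (adjusted p 0.861 and 0.705 by limma). Whether the RNA of these hormones differed per beta cell was not tested. The scaling raised the median difference over all genes from -0.00056 to 0.11, and over the 8 genes the median became 0.095. With it 5 of the 8 genes were higher and 3 lower, where 76.4% of all genes were higher and 23.6% lower. On this scale 0 of 8 passed at an adjusted p under 0.05 by limma, where 0.203% of all genes did. Kcnj11 differed by 0.32 (95% interval 0.02 to 0.62), with an unadjusted limma p of 0.0406 and an adjusted p of 0.335, and 15.1% of all genes had an unadjusted p under 0.05 on this scale. Without KO replicate 1 or without WT replicate 2 this difference of Kcnj11 was 0.20 (unadjusted limma p 0.169 and 0.175). It was 0.34 without WT replicate 3 (p 0.0524), 0.27 with array weights (p 0.0657) and 0.20 with its probe sets averaged (p 0.0823), and the filter on dim probe sets gave a p of 0.053. Ucn3 then differed by -0.21 (95% interval -0.47 to 0.05) and G6pc2 by -0.12 (-0.39 to 0.15), and the groups overlapped in both. Without WT replicate 1 they were -0.10 and -0.03.

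**Figure D2:**
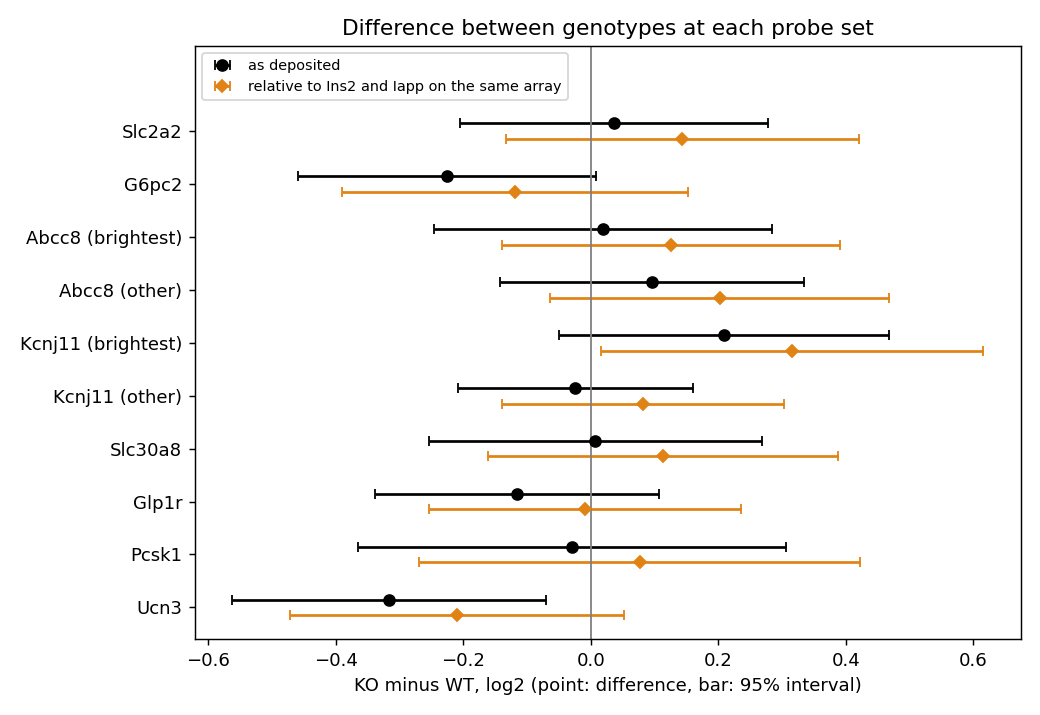
Difference between genotypes, KO minus WT on the log2 scale, at the 10 probe sets, as deposited (black) and relative to Ins2 and Iapp on the same array (orange). Points are differences and bars 95% intervals from 3 arrays against 3. As deposited, the interval of Ucn3 alone leaves out 0, from -0.56 to -0.07, and relative to the hormones that of the brightest Kcnj11 probe set alone, from 0.02 to 0.62.

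KO replicate 2 was the array on which most of the genes were low. With each gene centred on its own mean over the 6 arrays, 7 of the 8 lay below it there, by 0.01 for Kcnj11 to 0.22 for Slc30a8 and Ucn3, and Glp1r lay 0.04 above. The mean over the 8 genes was lowest on that array, at -0.13, and highest on WT replicate 1, at 0.12, where 6 of 8 lay above their own mean. The other arrays were mixed, with 3 to 5 of the 8 below. WT replicate 1 was the highest array for G6pc2, Glp1r, Pcsk1 and Ucn3 and the lowest for Abcc8. KO replicate 2 was the lowest for Slc2a2, Slc30a8 and Ucn3. The range over the 6 arrays ran from 0.32 for Glp1r to 0.58 for Ucn3. The pair of genes with the most similar profiles was Slc2a2 and Slc30a8, with a root mean square difference of 0.09 over 6 arrays, and the pair least alike Kcnj11 and Ucn3, with 0.29. G6pc2 and Ucn3 differed by 0.10. Among 15569 other genes that varied at least as much, the mean profile of the 8 genes lay nearest to Uhrf2, Phldb1, Gm266, Rbmx2 and Amdhd1, with root mean square differences of 0.018 to 0.029 over 6 arrays. That mean profile varied little (SD 0.083), so near matches among so many genes can arise by chance. Gm266, Rbmx2 and Amdhd1 were also dim, with mean levels of 2.60, 2.72 and 2.44. A relation to the 8 genes was not tested.

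**Figure D3:**
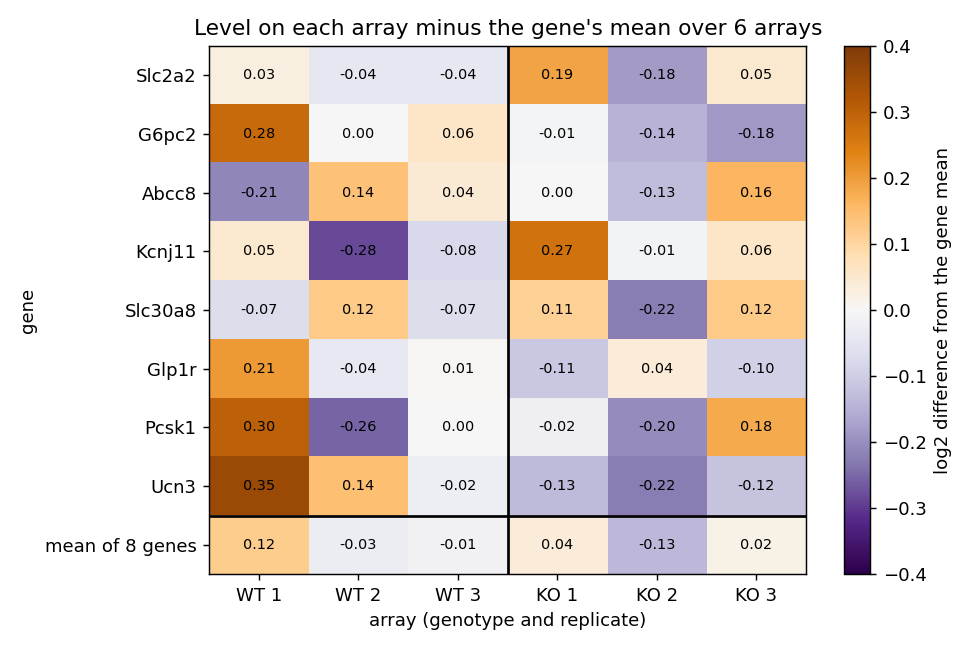
Level of each of the 8 genes on each array, minus the mean of that gene over the 6 arrays, on the log2 scale, with the mean of the 8 genes in the bottom line. Orange is above and purple below the gene's mean, WT arrays stand left of the black line and KO arrays right. KO replicate 2 is purple for 7 of the 8 genes, with Glp1r at 0.04 the exception, and WT replicate 1 reaches 0.35 for Ucn3 and -0.21 for Abcc8.

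Other genes of prohormone processing, a list not limited to enzymes that act on proinsulin, were mostly lower in KO by small amounts. Of 17 measured genes of the prohormone processing list, 0 passed at an adjusted p under 0.05 by limma, 14 were lower and 3 higher, where 50.2% of all genes were lower, and the median was -0.07. At an unadjusted p under 0.05, 4 were lower (23.5% of the list) and 0 higher, against 5.58% of all genes lower. Without KO replicate 1 it was 2, against 4.74% of all genes lower in that fit. Pam and Pcsk6 were among those counted with each array left out. Carboxypeptidase E (Cpe), which trims the basic residues that the convertases leave, measured 9.67, 9.90 and 9.81 in KO and 9.88, 10.05 and 10.36 in WT, a difference of -0.30. Pam, which amidates peptide ends, lay between 6.10 and 6.17 in KO and between 6.36 and 6.44 in WT, a difference of -0.26. Pcsk6, a convertase of the constitutive pathway, differed by -0.37 and Qpct, a glutaminyl cyclase, by -0.44. The adjusted p of these 4 genes ran from 0.339 to 0.557. The KO and WT values of Pam and of Pcsk6 did not overlap, nor did those of Ctsb, chosen after its values were seen, which differed by -0.20. Over all genes, the groups did not overlap with KO the lower in 7.56%. Tmed6 and Ctsl, the brightest genes of the list with Cpe, differed by -0.02 and 0.09. Scg5, the chaperone of convertase 2, and Pcsk1n, an inhibitor of convertase 1/3, were chosen after their values were seen and differed by -0.25 and -0.0045. These enzymes also occur outside beta cells, and the share of the signal from each cell type was not tested.

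Differences of zinc genes other than Slc30a8 ran from -1.16 (Slc39a10) to 2.60 (Mt2) on the log2 scale. Of 20 measured genes of zinc transport and binding 0 passed the adjusted threshold by limma, and 3 had an unadjusted p under 0.05, all higher in KO, against 4.55% of all genes. The 3 were Mt2, Slc30a1 and Slc39a14. Leaving out KO replicate 1 gave 5 genes at that threshold, leaving out WT replicate 3 gave 4 and leaving out WT replicate 2 gave 1. The shares of all genes higher in those fits were 4.08%, 5.36% and 3.34%. Leaving out KO replicate 2, KO replicate 3 or WT replicate 1 gave 2, Slc39a14 and Slc39a8, against 3.62%, 4.51% and 3.84% of all genes. Slc39a8 was not counted with all arrays. With an array left out, Mt2 and Slc30a1 were counted only without KO replicate 1 or without WT replicate 3. Of the list, 9 genes were higher and 11 lower, with a median of -0.02. Metallothionein 2 (Mt2), which binds zinc, measured 8.51, 11.28 and 10.17 in KO and 5.75, 6.02 and 10.39 in WT. WT replicate 3 was as high as the KO arrays, and the difference of 2.60 had an adjusted p of 0.557. The zinc exporter Slc30a1 measured 7.09, 7.57 and 7.38 in KO and 6.08, 6.30 and 7.48 in WT, with the same WT replicate high. Mt1 differed by 1.83 (adjusted p 0.589), and its WT values ran from 7.54 to 11.30, that of replicate 3 again the highest. The 3 arrays of high Xist were also the 3 highest for Mt1, Mt2 and Slc30a1. The zinc importer Slc39a14 measured 6.40, 6.19 and 6.21 in KO and 6.09, 5.79 and 5.54 in WT, with no overlap and a difference of 0.46 (adjusted p 0.385), and was counted with each array left out. Slc39a5, a pancreatic zinc importer, differed by -0.02. In the other direction the zinc importer Slc39a10, chosen after its values were seen, lay between 3.31 and 5.42 in KO and between 4.25 and 6.47 in WT. Its difference of -1.16 (unadjusted limma p 0.0763) was the third in size in the list, after Mt2 and Mt1. The groups overlapped, and the 3 arrays of high Xist were its 3 lowest.

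**Figure D4:**
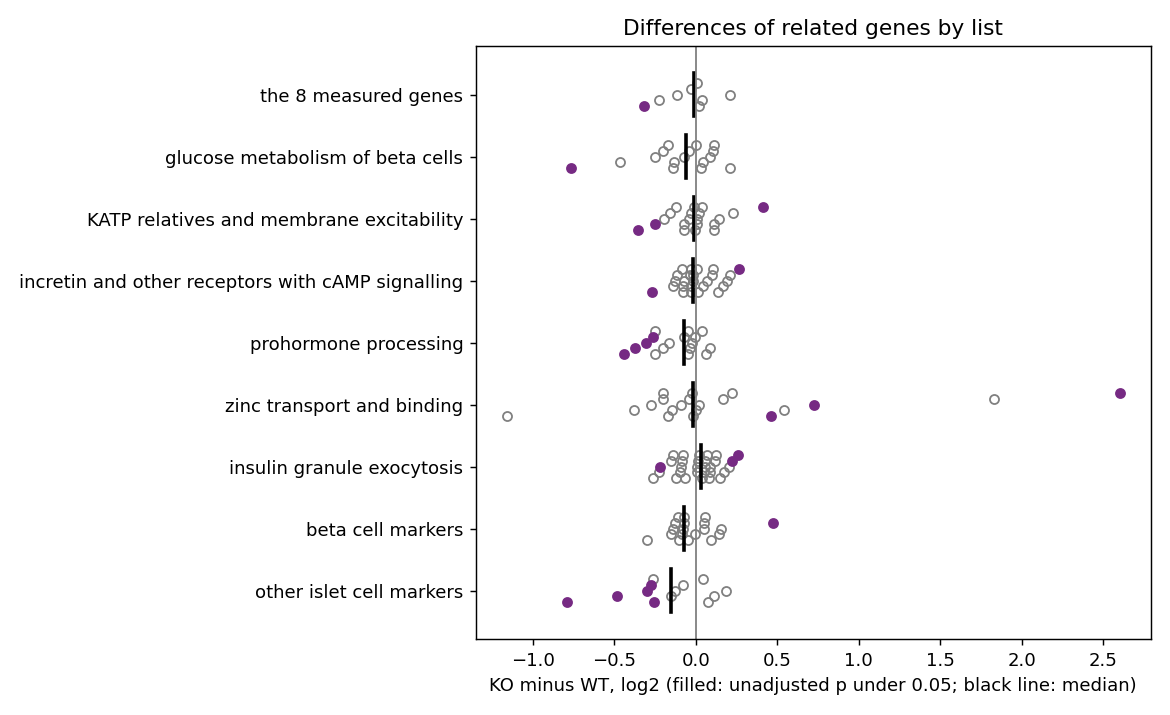
Difference KO minus WT on the log2 scale of the 8 measured genes and of each measured gene of 8 related lists, by its brightest probe set. Filled points have an unadjusted p under 0.05, open points do not, and black lines are list medians, which run from -0.15 for other islet cell markers to 0.03 for granule exocytosis. The rightmost point is Mt2 at 2.60.

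Of the lists of glucose metabolism, excitability, receptors and exocytosis, 0 genes passed the adjusted threshold by limma. In glucose metabolism 1 of 16 genes had an unadjusted p under 0.05, where 10.1% of all genes did. This was Txnip, a glucose-induced inhibitor of thioredoxin, at 7.92, 8.91 and 8.43 in KO and 9.42, 9.02 and 9.11 in WT, a difference of -0.77 with an adjusted p of 0.357. Mdh1 and Glud1, its brightest partners in the list, differed by 0.09 and 0.11. Among KATP relatives and membrane channels it was 3 of 20, with the calcium pump Atp2a2 at -0.35, the cation channel Trpm2 at 0.41 and Kcnj8, the Kir6.1 pore, at -0.25. Among receptors and cAMP signalling it was 2 of 25, the kinase subunit Prkar1a at -0.27 and Ramp3, a receptor accessory protein, at 0.26, and the G protein subunit Gnas differed by -0.13. In granule exocytosis it was 3 of 30, with Cplx2 at 0.26, Cadps2 at 0.22 and Scg2 at -0.22.

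Markers of islet and other cells were read beside these results. Of 19 measured beta cell markers outside the 9 genes, 1 (5.26%) had an unadjusted p under 0.05, Pdx1 at 0.48, where 10.1% of all genes did in either direction and 4.55% with KO the higher. The median was -0.07, and the mean level of the list ran from 4.98 to 5.13 in KO and from 5.02 to 5.10 in WT. Of 13 markers of other islet cells, 5 had an unadjusted p under 0.05, all lower, against 5.58% of all genes (3 when KO replicate 2, WT replicate 2 or WT replicate 3 was left out). The 5 were Ttr, Pyy, Ppy, Hhex and Pou3f4, and of these Ttr and Pyy were counted with each array left out. The list mean ran from 5.79 to 5.91 in KO and from 5.98 to 6.03 in WT. For acinar markers it was 1 of 14, lower in KO, with means of 12.27 to 12.36 in KO and 12.35 to 12.41 in WT. For duct markers it was 3 of 12 (2 higher and 1 lower, 25% of the list), and for immune cells 3 of 17 (1 higher and 2 lower, 17.6%), where 10.1% of all genes passed in either direction. For neurons and glia it was 2 of 15 (1 in each direction). For gut it was 1 of 14, Pyy, lower in KO and already counted among other islet cells. Of 17 liver markers it was 1, Ttr, lower in KO, which alpha cells also make, and albumin measured 4.06 on average. No gene of these lists passed the adjusted threshold by limma, the lowest adjusted p being 0.142. The part of cell composition in the values of G6pc2, Ucn3 and the processing enzymes was not tested.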

How the data were processed

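Total RNA of whole pancreas was measured on 1 Affymetrix array per mouse, and samples were grouped by the genotype in their titles. Per the labels they are biological replicates. The log2 values deposited by the authors come from RMA of the package affy, per the submitters' processing notes, whose version the sources used here do not give. RMA equalises the distributions of the arrays, which hides any shift common to most genes, and differences of dim probe sets can come out too small.

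Of 45101 probe sets, 64 controls were left out. In the platform annotation 34958 had 1 symbol, 932 several and 9211 none, and 34754 symbols were updated by Entrez identifier through RefSeq. KO minus WT was fitted on all 45037 with limma 3.58.1 (lmFit, eBayes; R 4.3.3), two-sided, without covariates, and p-values were adjusted by Benjamini-Hochberg over all of them. Intervals are 95%, from the moderated standard error. A gene stands for its brightest single-symbol probe set. The fit was tested on simulated data. Figures were drawn with matplotlib 3.10.9.

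The genes and the 15 related lists (283 genes, 252 measured) were chosen with earlier results of these data known. The 9 genes were named whatever their result, as were Pebp1, Ins2 and Iapp. Of the lists described, the 3 brightest genes and those of unadjusted p under 0.05 could be named, and the 5 genes of nearest profile. Cela3b and albumin were named as tissue checks. Alternatives were other normalizations, a filter on dim probe sets, other variance models, weighting of arrays, a block for the replicate number, each array left out, other probe set choices, the Xist covariate, an adjusted p under 0.1, and scaling to Ins2 and Iapp. The number of arrays limits the precision.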

Additional observations from a re-analysis of the deposited data

How the results depend on the processing

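Of the 8 genes measured, 0 passed in any of 17 alternatives, a threshold of 0.1 among them, and the lowest adjusted limma p was 0.266 (Ucn3). The number with an unadjusted p under 0.05 was 1 in the main fit, where 10.1% of all genes passed in either direction. For the alternatives that follow that share is not given here, so their counts cannot be read against it. The number was 2 after a second quantile normalization (Kcnj11 and Ucn3). It was also 2 (G6pc2 and Ucn3) with equal array medians, with the replicate block and with a gene's probe sets averaged. It was 0 with the Xist covariate and 0 with the filter on dim probe sets, which removes Ucn3 and Glp1r. It ran from 0 to 2 with 1 array left out, 0 without KO replicate 2 and 2 without KO replicate 1 or WT replicate 2, and without WT replicate 1 the 1 gene was Kcnj11 in place of Ucn3. In those fits 4.28% to 6.83% of all genes were lower and 3.34% to 5.36% higher at that threshold. G6pc2, Kcnj11 and Ucn3 kept their direction in every alternative run, with values from -0.28 to -0.12, from 0.093 to 0.32 and from -0.41 to -0.21. Glp1r ran from -0.16 to -0.0089.

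The median over the 8 genes was -0.011, and 0.095 relative to Ins2 and Iapp, and -0.076 to 0.077 with 1 array left out. Differences near 0 changed sign. Abcc8 was -0.0012 with equal array medians, -0.0034 with array weights, -0.0022 with the Xist covariate and -0.080 to 0.094 with 1 array left out. Slc30a8 was -0.014 with equal array medians, -0.012 with array weights and -0.053 to 0.12 with 1 array left out. Slc2a2 ran from -0.047 to 0.14 and Pcsk1 from -0.16 to 0.11 with 1 array left out, and Pcsk1 was 0.077 relative to Ins2 and Iapp. On that scale Glp1r was 0.0018 with the Xist covariate and ran from -0.081 to 0.074, and Pcsk1 from -0.081 to 0.23, with 1 array left out. The cause of these changes was not tested.

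Same-numbered KO and WT arrays deviated together at correlations of 0.19, -0.031 and -0.082. The labels do not say whether same-numbered mice were paired, and these correlations cannot settle it. With the replicate block Ucn3 differed by -0.32 (adjusted limma p 0.496) and G6pc2 by -0.22 (adjusted limma p 0.595), and no call changed. Counts of related genes with an array left out or the Xist covariate were chosen after seeing the data. With that covariate they were 4 of 17 genes of prohormone processing and 4 of 13 other islet genes, all lower, against 5.08% of all genes. Of 20 zinc genes they were 3, all higher, against 3.75% of all genes. The genes of prohormone processing were the same as in the main fit. Among zinc genes Slc39a8 was counted in place of Slc30a1. Among other islet genes Chgb was counted, and Hhex and Pou3f4 no longer were. Dim signal limits Ucn3, Glp1r and 1 probe set each of Abcc8 and Kcnj11, all below the array median. Slc2a2, Slc30a8, Pcsk1 and the brightest Abcc8 probe set lay above the median on all 6 arrays but above the upper quartile on 0. Only 2 of the 8 genes, G6pc2 and Kcnj11, were above the upper quartile on all 6 arrays.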

Other observations

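Genes that mature beta cells are known to keep silent were measured in the same whole pancreas, where other cells express them. Of 11 such genes, 8 were lower and 3 higher in KO, with a median of -0.12 and 0 past the adjusted threshold by limma. At an unadjusted p under 0.05 were 3, all lower, against 5.58% of all genes. Smad3, a mediator of TGF-beta signals, measured 5.95 ± 0.06 in KO and 6.34 ± 0.06 in WT (SD, n = 3 each), with no overlap and a difference of -0.38. The monocarboxylate transporter Slc16a1 differed by -0.54 and the ornithine aminotransferase Oat by -0.29, and both overlapped between genotypes. Ldha, the brightest gene of the list, differed by 0.20.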
